A study of Mus musculus with 23 samples.

Results

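The largest family of DNA-binding proteins in mammals is built from C2H2 zinc fingers, short folds in which a pair of cysteines and a pair of histidines hold a zinc ion while the finger reads a few bases of DNA. Many of these proteins also carry a KRAB domain, which recruits the corepressor Trim28 and, through it, the histone methyltransferase Setdb1 and the HP1 proteins (Cbx genes), so that the chromatin at the bound site is silenced. Their best known targets are endogenous retroviruses and imprinted regions, and in mouse liver a pair of KRAB proteins, Rsl1 and Rsl2, represses sex-limited genes. KRAB genes sit in clusters of recent copies. Other zinc finger proteins lack the domain and activate promoters, dimerise through a SCAN domain, or act outside transcription.

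The genes described here are the protein-coding mouse genes whose symbol is Zfp followed by a number, without Zfp36, an RNA-binding protein of another finger type. Members were chosen by a measured value, a mean of at least 2 CPM (the count over the library total, scaled to a common total) over all 23 liver libraries, so the levels below are a description with no test. Of 364 such genes among the 54838 of the table, 233 were members. The nearest outside the threshold were Zfp108 at 1.95 CPM and Zfp438 and Zfp940 at 1.96 CPM. The nearest inside were Zfp937 at 2.02 CPM and Zfp59 and Zfp493 at 2.04 CPM. Zfp57, the classical guardian of imprints in embryos, was at 0.512 CPM and is not a member.

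The livers came from C57BL/6J mice given a recombinant protein or vehicle. The protein was given in 3 injections at 1 day intervals, at 1 µg per g of body weight. For the vehicle no number or interval of injections is given here. Batch 2 holds 4 libraries each for vehicle and for 3 proteins. EPDR1 is ependymin-related protein 1. FCN2, or ficolin-2, is a lectin that starts the complement cascade. FSTL3, or follistatin-like 3, binds and blocks activins. Batch 1 holds 3 libraries that came from mice given LBP (lipopolysaccharide-binding protein, replicates 2, 3 and 4) and 4 from mice given vehicle. The labels give no genetic change in any group, no age and no sex, and do not say that each sample is a separate animal, so p-values refer to a spread among samples that may be technical.

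Total counts ran from 773499 to 21892416 per library, and 231 to 233 members had at least 1 count in each library apart from LBP replicate 2 (186 members) and replicate 2 of the batch 1 vehicle (225). LBP replicate 2 stood apart: its share of albumin counts was 0.211%, and 5.26% to 8.36% in the others, and the common dispersion (the estimated variance between libraries beyond counting noise) was 0.0774 with it and 0.0298 without it, so counts are given both ways. The summed level of 8 hepatocyte markers was 79704 to 119200 CPM over the batch 2 libraries, 85299 to 102100 in the batch 1 vehicle and 29503 to 100240 in the LBP libraries. In whole liver, fewer cells of a type and less RNA per cell cannot be told apart.

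A KRAB domain was found in 130 members, 3 of which (Zfp110, Zfp369 and Zfp445) also have a SCAN domain, which dimerises such proteins. Another 6 members have a SCAN domain alone and 97 neither. The C2H2 pattern itself was absent from 4 proteins, Zfp330, Zfp703, Zfp750 and Zfp839. KRAB proteins held a median of 12 fingers (up to 33) and the others 8 (up to 37).

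The classes differ in base composition, which none of the selection used. The median GC content of the exons was 41.7% for KRAB members (quartiles 39.4% and 44.3%), 50.0% for the other members (43.7% and 55.2%) and 48.8% for the other protein-coding genes at the same minimum level (44.3% and 53.6%). In the coding sequence alone the medians were 42.0% for KRAB and 54.5% for other members. Over all members, exon GC content ranged from 35.4% to 64.5%.

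One finger repeat is shown for each of the 3 genes called higher after FCN2 with all libraries in the fit, since the repeat is what these genes share. Each run is 1 finger of coding sequence from GENCODE M21, with the linker before it and the linker after it in capitals. In Zfp51 the unit covers bases 793 to 891 of the coding sequence with a GC content of 36.4%, in Zfp719 bases 1090 to 1188 with 46.5%, and in Zfp995 bases 952 to 1050 with 38.4%.
Zfp51: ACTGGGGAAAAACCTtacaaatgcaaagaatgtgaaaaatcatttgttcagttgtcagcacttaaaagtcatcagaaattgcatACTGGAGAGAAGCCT
Zfp719: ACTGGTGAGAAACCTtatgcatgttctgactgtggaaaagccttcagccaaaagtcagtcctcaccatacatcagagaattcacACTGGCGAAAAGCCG
Zfp995: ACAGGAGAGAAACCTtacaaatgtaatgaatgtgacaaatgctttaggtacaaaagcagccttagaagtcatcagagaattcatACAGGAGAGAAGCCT

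The linkers that join fingers occur in several spellings. The commonest, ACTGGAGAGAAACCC, made up 105 of the 989 linkers found in the members (10.6%). The next were ACAGGAGAGAAACCT and ACTGGAGAGAAACCT with 78 each (7.89%). Of the 50-base words of a member's exons, a median of 2.27% for KRAB members and 0.571% for the others also occurred in a transcript of another gene. Reads from words that lie at several places map to each of them and were not counted. Words of exons that overlap another gene, found in 67 members, are included although they lie at 1 place. The genome outside annotated transcripts was not searched.

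The members lay on 20 chromosomes. Chromosome 7 held 55 (30 of them KRAB), chromosome 17 held 33 (30 KRAB), chromosome 13 held 21 (16 KRAB) and chromosome 8 held 18 (12 KRAB), while none of the 8 on chromosome 18 was KRAB. With gaps under 500 kb joined, 97 members formed 13 runs of at least 4 neighbours, and 85 stood alone.

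RefSeq promoters (250 bases before to 50 after the start, GRCm38.p6) were matched for 117 of the 130 KRAB members and 78 of the 103 others. KRAB promoters held CCAAT more often than the others: this box, searched on both strands, was in 57.0% of KRAB promoters, 38.7% of other members' promoters and 37.4% of all promoters of the same length in the table. GGGCGG, the GC box, was in 34.8% of KRAB and 60.4% of other members' promoters, against 35.7% of all promoters and 62.3% of those of the other protein-coding genes expressed here. A match is a description of the letters and not evidence of binding.

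Promoters are shown for Zfp719 and Zfp995, each CpG in capitals, to set their CpG content beside the median of 10 in KRAB promoters and 20.5 in those of other members. The Zfp719 promoter, chr7:43579336-43579635 on the plus strand, held 11 CpG and neither CCAAT nor GGGCGG on either strand. The Zfp995 promoter, chr17:21909877-21910176 on the minus strand, held 3 CpG and likewise neither.
Zfp719: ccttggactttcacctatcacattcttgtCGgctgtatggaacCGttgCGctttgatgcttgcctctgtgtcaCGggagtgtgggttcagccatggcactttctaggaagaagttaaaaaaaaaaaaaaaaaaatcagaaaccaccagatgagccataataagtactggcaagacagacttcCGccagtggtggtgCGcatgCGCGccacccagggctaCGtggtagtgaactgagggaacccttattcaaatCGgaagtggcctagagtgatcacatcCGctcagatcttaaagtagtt
Zfp995: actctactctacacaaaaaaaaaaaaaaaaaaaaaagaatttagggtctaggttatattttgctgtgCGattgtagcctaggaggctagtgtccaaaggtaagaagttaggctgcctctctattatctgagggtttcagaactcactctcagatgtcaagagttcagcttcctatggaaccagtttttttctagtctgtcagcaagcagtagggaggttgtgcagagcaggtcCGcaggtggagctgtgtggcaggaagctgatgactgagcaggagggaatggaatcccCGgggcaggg

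Compared per kilobase of exon, the most abundant members were Zfp445 at 21.2 CPM per kb, Zfp706 at 16.2, Zfp91 at 15.6 and Zfp207 at 13.1. They were followed by the KRAB gene Zfp809 at 13 CPM per kb, then Zfp825 at 12.9, Zfp871 at 11.2 and Zfp655 at 9.86. Zfp445 maintains imprints with Zfp57, Zfp91 is an E3 ubiquitin ligase, Zfp207 acts at kinetochores, and Zfp809 silences endogenous retroviruses. The median level was 1.6 CPM per kb for KRAB members, 2.22 for the others and 4.02 for the other protein-coding genes. Together the members took 0.281% to 0.314% of all counts in the EPDR1 libraries, 0.281% to 0.303% in the batch 2 vehicle, 0.312% to 0.353% in FCN2, 0.461% to 0.487% in FSTL3, 0.306% to 0.350% in the batch 1 vehicle, and 0.232%, 0.301% and 0.314% in the 3 LBP libraries. The FSTL3 libraries thus stood above all others.

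**Figure D1:**
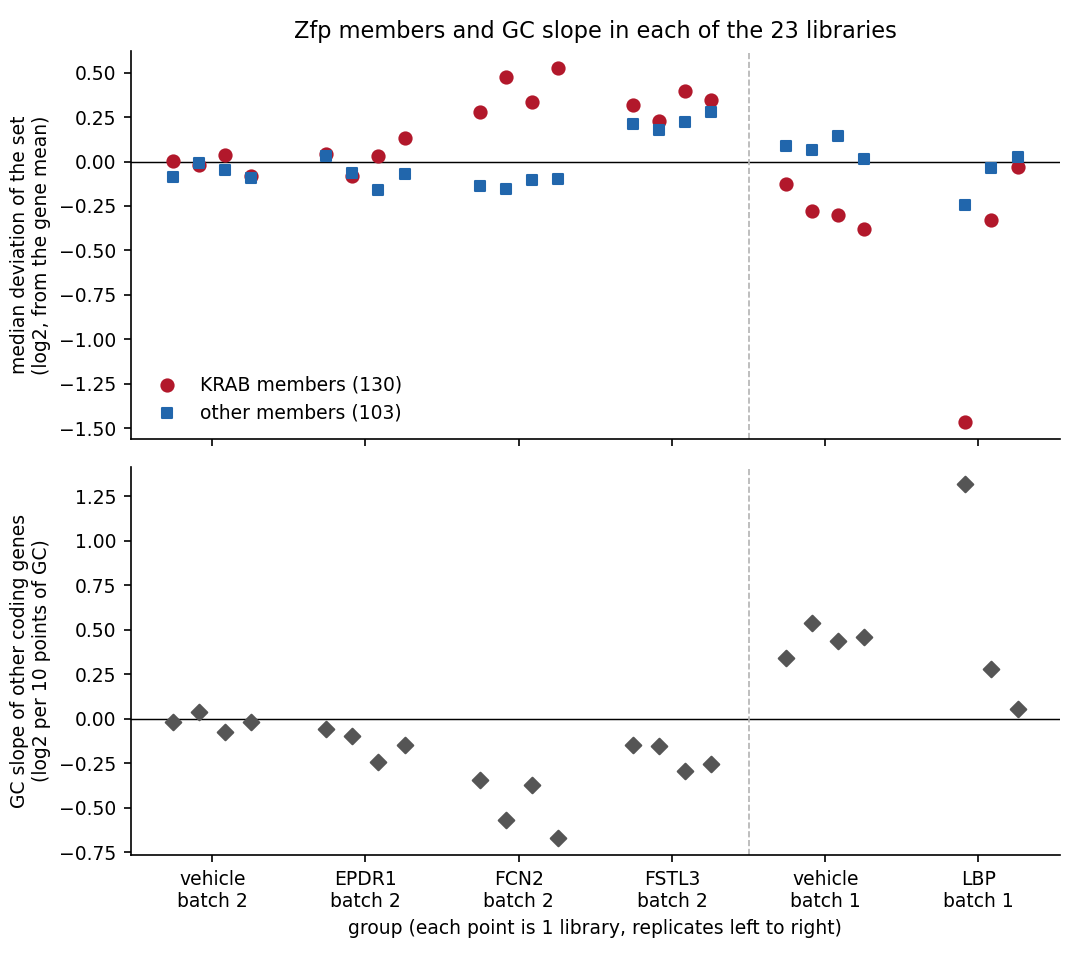
Upper axis, the median log2 deviation of the KRAB members and of the other members, 1 pair of points per library. Deviations are from each gene's mean over all libraries of both batches. Lower axis, the slope of log2 deviation on exon GC content per 10 percentage points over the other protein-coding genes of the same library. KRAB medians in the 4 FCN2 libraries were 0.279 to 0.524 with slopes of -0.344 to -0.669, and those in the batch 1 vehicle -0.378 to -0.125 with slopes of 0.340 to 0.540.

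After FCN2 the median KRAB gene lay above the vehicle and the median other member did not. Within each class this differed with GC content, as given below. The median log2 difference to the batch 2 vehicle was 0.53 over the 130 KRAB members (quartiles 0.29 and 0.74), -0.06 over the 103 others, 0.02 over all genes tested and 0.00 over the other protein-coding genes. The difference was positive in 116 of 130 KRAB members and 48 of 103 others. KRAB members took 0.174% ± 0.0113 of the counts after FCN2 (SD, n = 4) and 0.135% ± 0.00532 in the vehicle (SD, n = 4), while the others took 0.160% ± 0.00683 and 0.161% ± 0.00726.

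Few of these differences passed the test with all libraries in the fit. Under edgeR's quasi-likelihood test with Benjamini-Hochberg adjustment over 11969 genes, 3 members rose (background: 0.159% of genes higher) and 1 fell (0.652% lower, 0.81% in either direction). At an unadjusted p under 0.05 there were 77 members (59 KRAB and 18 others) of 2069 genes. In the fit without LBP replicate 2, 58 members rose (background 8.81% higher) and 14 fell (10.1% lower, 18.9% in either direction). Of the KRAB members 48 then rose and 1 fell, with a median of 0.52, and of the others 10 rose and 13 fell. The KRAB count of higher calls is thus above the background share and that of the others near it. These 72 calls became 25 when the deepest library, vehicle replicate 2, was left out as well, 28 without FCN2 replicate 4, and 49 to 67 without any other library.

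The libraries themselves show the same split. Among KRAB members 41 of 130 (31.5%) had all 4 FCN2 values above all 4 vehicle values and 0 had all below, and among the others 8 lay above and 8 below. Over all genes tested, 9.12% lay above and 9.47% below.

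Zfp51, a KRAB gene with 20 fingers at chromosome 17, 21450374 to 21465587 (GRCm38), was at 8.94, 8.67, 8.69 and 6.92 CPM in vehicle replicates 1 to 4 and at 15.2, 19.2, 13.7 and 21.1 CPM after FCN2. All FCN2 libraries lay above all vehicle libraries, and EPDR1 lay between (9.96 to 12.1 CPM). The log2 difference was 1.05 ± 0.20 (SE, edgeR adjusted p = 0.0236, and 0.00117 without LBP replicate 2). The lowest levels of this gene were in batch 1, with 3.41 to 6.1 CPM in the vehicle.

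Zfp719, a KRAB gene with 13 fingers at chromosome 7, 43579610 to 43593235, was at 4.22, 4.63, 4.97 and 3.8 CPM in the vehicle and at 9.03, 10.4, 11.3 and 7.75 CPM after FCN2, again without overlap. The log2 difference was 1.11 ± 0.26 (SE, edgeR adjusted p = 0.0473, and 0.00334 without LBP replicate 2). It was as high in FSTL3 libraries, at 8.47 to 9.17 CPM. Only 0.277% of its 50-base words occur in transcripts of other genes, so few of its reads can be lost to copies among them.

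Zfp995, a KRAB gene with 9 fingers at chromosome 17, 21879570 to 21909926 on the minus strand, was at 2.48, 2.18, 2.07 and 2.42 CPM in the vehicle and at 4.51, 6.78, 4.17 and 4.7 CPM after FCN2. The groups did not overlap, and the log2 difference was 1.11 ± 0.23 (SE, edgeR adjusted p = 0.0312, and 0.00423 without LBP replicate 2). In this gene 13.4% of the words are shared with other genes.

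Zfp523, a relative of Zfp143 without a KRAB domain (chromosome 17, 28177129 to 28205886), fell. It was at 9.93, 10, 10.4 and 7.26 CPM in the vehicle and at 4.67, 3.99, 4.17 and 3.76 CPM after FCN2, with no overlap. The log2 difference was -1.17 ± 0.25 (SE, edgeR adjusted p = 0.0378, and 0.000947 without LBP replicate 2). Its exons overlap those of AC126937.2, from which unstranded reads cannot be told apart, and its GC content is 55.6%, against 38.5% in Zfp51, 42.6% in Zfp719 and 40% in Zfp995.

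With LBP replicate 2 kept, none of the 4 calls held each time when 1 further library was left out. The adjusted p of Zfp719 was 0.0725 to 0.156 without any 1 of the 8 libraries. For Zfp523 it was 0.0458 without vehicle replicate 4 and 0.0568 to 0.156 without any other. Zfp995 was called only without FCN2 replicate 3 (0.0404) or vehicle replicate 4 (0.0458), with 0.0511 to 0.167 otherwise. The call of Zfp51 was lost without FCN2 replicates 2 or 4 or vehicle replicates 1, 2 or 3 (0.054 to 0.138).

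Next by p were 6 KRAB genes that did not pass with all libraries (adjusted p 0.0608 to 0.0768) and passed without LBP replicate 2 (0.00069 to 0.00624), each without overlap. Zfp945 was at 21.9 ± 7.45 CPM in the vehicle and 40.5 ± 4.70 after FCN2 (SD, n = 4 each), Zfp944 at 19.4 ± 2.24 and 35.8 ± 4.57, and Zfp948 at 7.85 ± 1.67 and 16.6 ± 0.99. Zfp825 was at 22.6 ± 4.93 and 36.5 ± 5.52 CPM, Zfp738 at 5.85 ± 0.594 and 10.8 ± 1.64, and Zfp960 at 2.51 ± 0.988 and 5.55 ± 1.57. In Zfp960 82.7% of the words are shared, so its count is uncertain, and Zfp738 overlaps Gm26587 and Gm48095.

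Over all members the differences ran from -1.2 for Zfp771 to 1.58 for Zfp97, both called only without LBP replicate 2. Zfp97 averaged 4.37 CPM after FCN2, 3.29 after FSTL3, 2.24 after EPDR1 and 0.715 after LBP. The FCN2 values that make its difference thus also helped it reach the minimum of 2 CPM. Without it the only member classed as KRAB by the score used here that fell was Zfp777 (-0.67). A domain far from the consensus can be missed by that score. After Zfp771, the largest falls among the others were Zfp523 (-1.18), Zfp524 (-0.97), Zfp64 (-0.93), Zfp691 (-0.86), Zfp710 (-0.83), Zfp574 and Zfp219 (-0.76 each) and the SCAN gene Zfp444 (-0.70). Smaller falls were seen for Zfp598 (-0.56), a sensor of collided ribosomes, and Zfp746 (-0.54), a repressor of Ppargc1a.

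**Figure D2:**
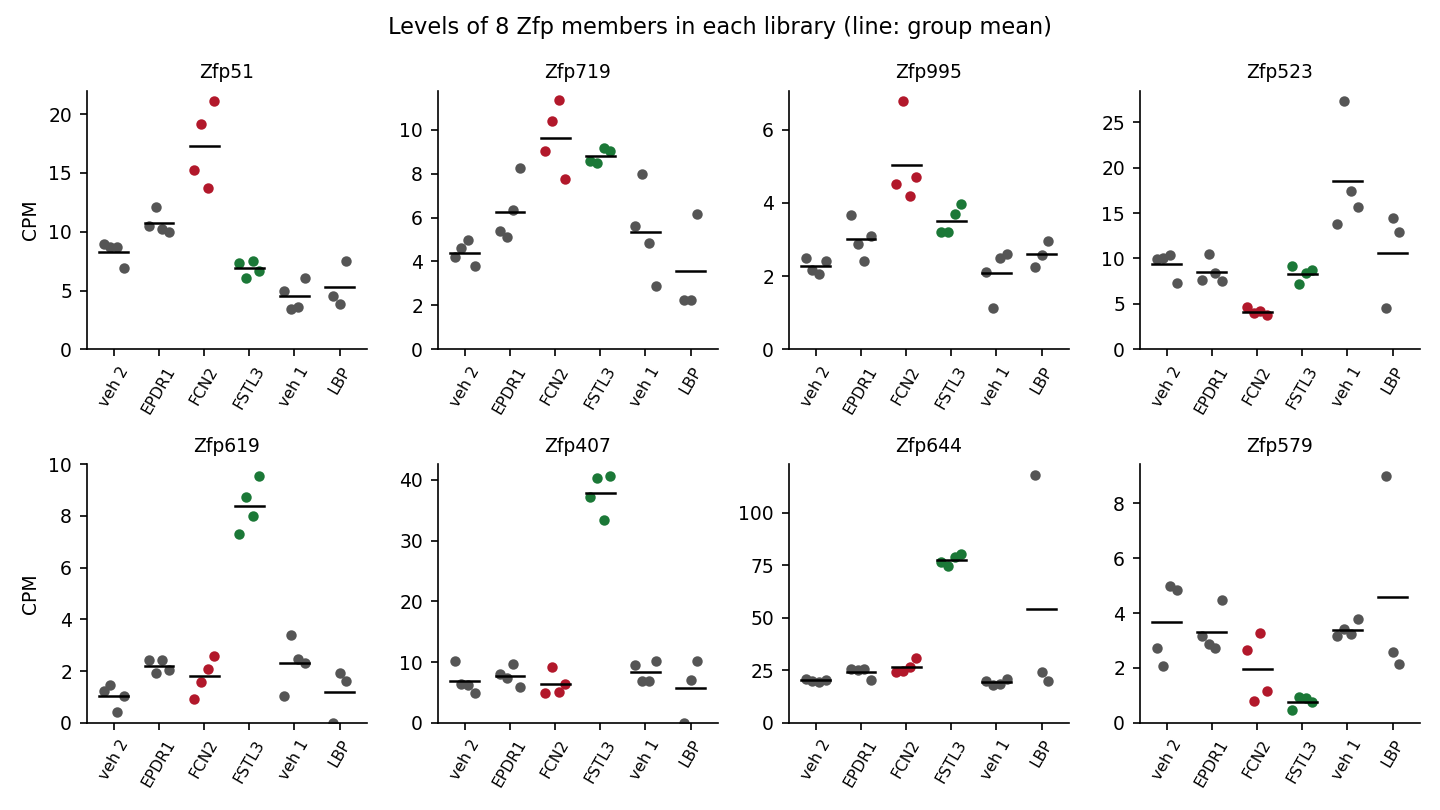
CPM of 8 members in each library by group, with a line at the group mean. Zfp51, Zfp719 and Zfp995 were higher and Zfp523 lower after FCN2 than in the batch 2 vehicle with no overlap, and Zfp619, Zfp407 and Zfp644 were higher and Zfp579 lower after FSTL3.

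The size of the FCN2 difference followed GC content in members of both classes and in genes of no such family. Below 40% GC the median log2 difference was 0.76 in 41 KRAB members, 0.42 in 7 other members and 0.44 in 610 other protein-coding genes. At 40% to 45% it was 0.50, 0.32 and 0.28, over 66, 23 and 2324 genes. At 45% to 50% it was 0.06, 0.11 and 0.07, at 50% to 55% -0.24, -0.18 and -0.22, and from 55% upward -0.25, -0.58 and -0.53 over 3, 26 and 1821 genes. Spearman's rho between GC content and the log2 difference, across genes that share libraries and are no replicates, was -0.84 over the 233 members and -0.65 over 11961 genes.

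The 4 FCN2 libraries also kept this order one by one. Replicates 1 to 4 had KRAB medians of 0.279, 0.477, 0.334 and 0.524. These are log2 deviations from each gene's mean over all libraries of both batches, not from the vehicle. The slope over other coding genes was -0.344, -0.570, -0.372 and -0.669 per 10 points of GC. The vehicle libraries of the batch had KRAB medians of -0.083 to 0.037 and slopes of -0.074 to 0.040.

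When each library's GC trend over all genes was removed, 0 members passed edgeR's test (background 0%), and 17 had an unadjusted p under 0.05. With LBP replicate 2 left out too, 0 members passed against a background of 1.07%, and 32 had an unadjusted p under 0.05. The shares of all genes at that unadjusted threshold are not given here for these fits. The KRAB median was then 0.21 in either fit, with 99 of 130 members positive in the fit of all libraries, and the median of the others 0.00 and of all genes -0.01. Values for the 4 called genes became 0.60 for Zfp51, 0.82 for Zfp719, 0.73 for Zfp995 and -0.79 for Zfp523, with edgeR adjusted p of 0.424 to 0.474. Among KRAB members rho with GC was still -0.36 after removal, against -0.04 over all genes. In each GC range above, the medians before removal had the same sign in KRAB members, other members and other coding genes. GC content and the KRAB class go together in these genes. Over all members, a difference by class and a difference by base composition thus cannot be told apart.

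**Figure D3:**
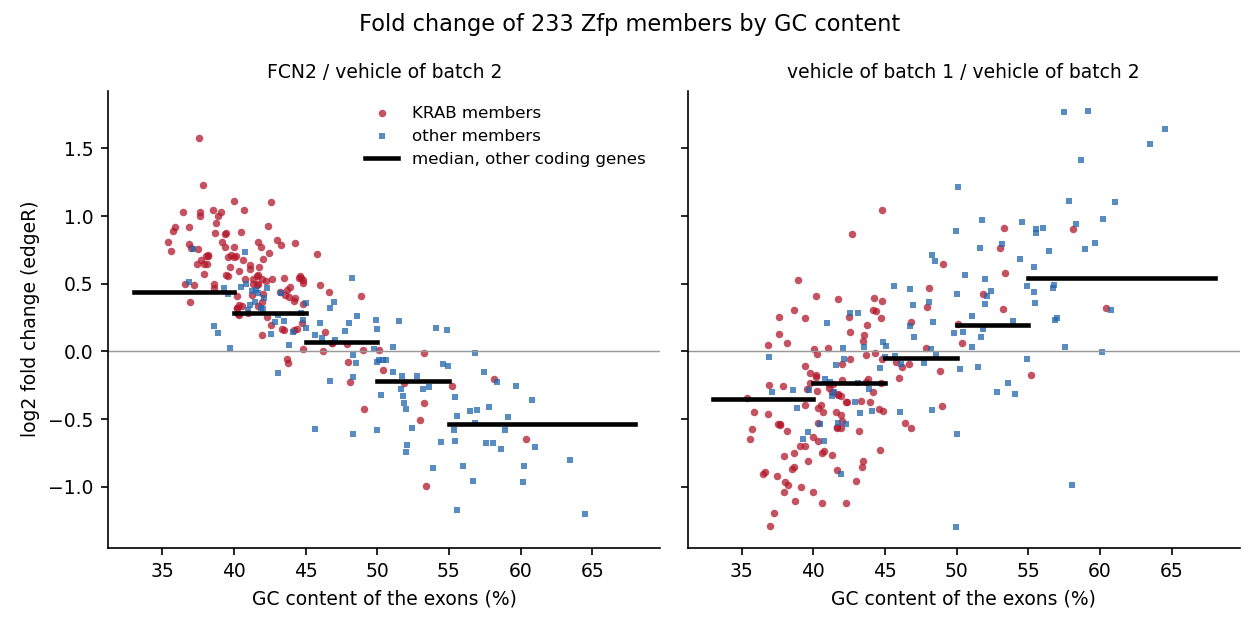
Exon GC content of each member (x, percent) against its log2 difference (y) for FCN2 and for the batch 1 vehicle, each against the batch 2 vehicle, KRAB and other members in separate colours. Black bars are the medians of the other protein-coding genes per GC bin, which run from 0.44 to -0.53 for FCN2 and from -0.35 to 0.54 for the batch 1 vehicle.

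Among the marker lists of liver cell types, those of hepatocytes and of sinusoidal endothelium were higher after FCN2 with no overlap. The 9 endothelial markers summed to 295 to 318 CPM after FCN2 and 223 to 282 in the vehicle. For 9 Kupffer cell markers they were 119 to 325 and 176 to 473, for 6 cholangiocyte markers 50.3 to 98.4 and 43.7 to 73.3, for 8 stellate markers 418 to 519 and 332 to 474, and for 7 lymphocyte markers 16.4 to 24.3 and 9.35 to 23.2 CPM. The 8 hepatocyte markers summed to 106670 to 119200 CPM after FCN2 and to 89357 to 101750 in the vehicle. Of the 7 lymphocyte markers 6 were detected after FCN2, while every marker of the other lists named here was detected in both groups. Their part in the result was not tested.

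The runs made up of KRAB genes alone had positive medians after FCN2, from 0.35 to 0.84. The run from Zfp160 to Zfp40 on chromosome 17 (21008903 to 23193252) holds 18 KRAB members with a median GC content of 38.4%, Zfp51 and Zfp995 among them. All 18 were above the vehicle after FCN2 with a median of 0.84. Of these 2 passed (0.159% of all genes were called higher), and 15 passed without LBP replicate 2 (8.81% of all genes). With the GC trend removed the median was 0.38 and 0 passed (background 0%). The run from Zfp759 to Zfp273 on chromosome 13 (67121660 to 67827002) holds 13 KRAB members with a median GC content of 39.4%. Their median difference was 0.80, all positive, with 0 called with all libraries and 7 called higher without LBP replicate 2. With the GC trend removed it was 0.39, with 0 called. Runs of higher GC content had negative medians: the 7 members from Zfp398 to Zfp467 on chromosome 6 (4 KRAB, 53.3% GC) had a median of -0.38, and the 4 from Zfp628 to Zfp865 on chromosome 7 (0 KRAB, 58.9% GC) one of -0.74. After FSTL3 the median was 0.12 in the Zfp160 run, 0.40 in the Zfp759 run and -0.69 in the Zfp628 run.

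**Figure D4:**
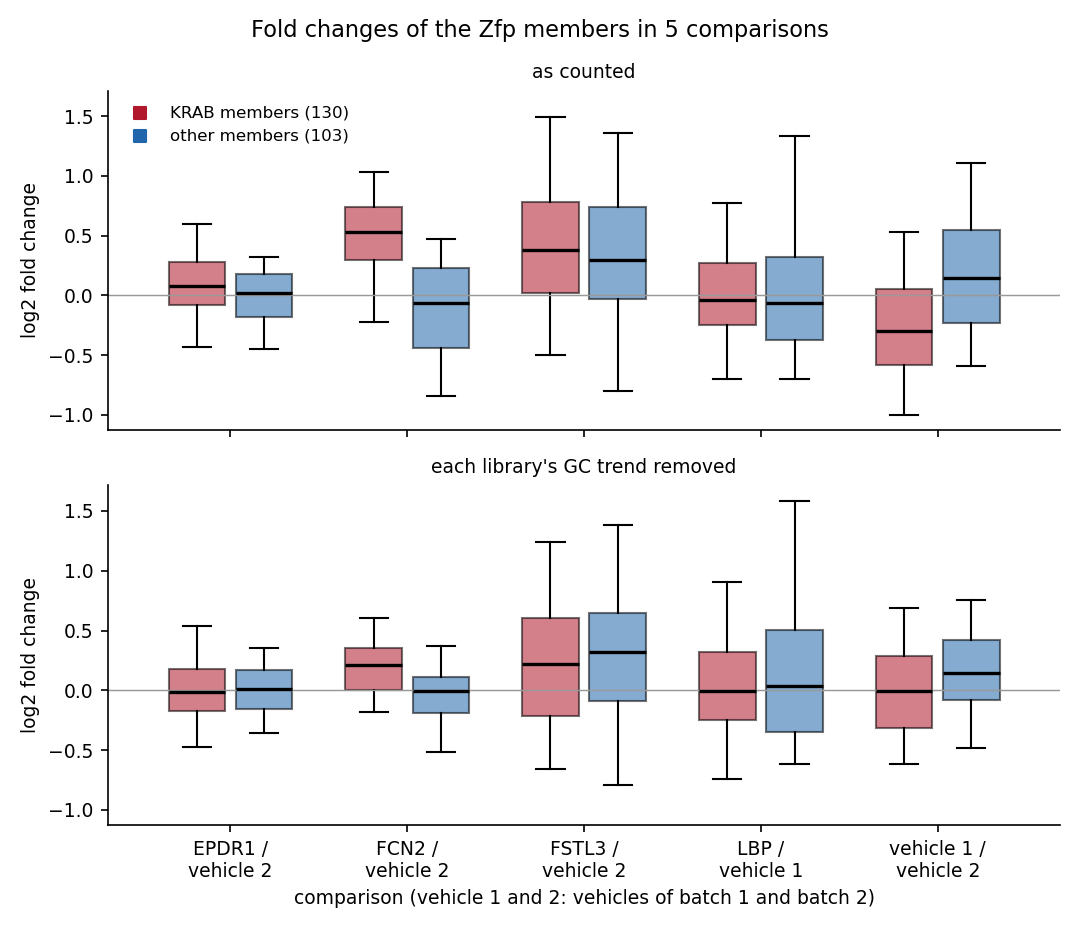
Log2 differences of KRAB members and of other members in each comparison with the vehicle of its batch, and of the batch 1 vehicle with the batch 2 vehicle. Boxes span the quartiles and whiskers the 5th to 95th percentiles, as counted above and with each library's GC trend removed below, where the KRAB median after FCN2 goes from 0.53 to 0.21.

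After FSTL3 many members differed, in both classes, at a share below that of genes at large. With all libraries 66 members rose (background 23.2% higher) and 10 fell (16% lower), so 32.6% of members passed against 39.2% of all genes. KRAB members accounted for 40 of the higher and 2 of the lower calls (median 0.38) and other members for 26 and 8 (median 0.30), with medians of 0.34 over all members, 0.06 over all genes and 0.02 over other coding genes. The fit without LBP replicate 2 had 92 rises (background 31.3%) and 19 falls (25.4%, and 56.8% in either direction). In 88 members (37.8%) all FSTL3 values lay above the vehicle and in 14 (6.01%) below, against 29.8% and 23.9% of all genes. Against the vehicle of batch 1, 76 rose (background 18.7%) and 15 fell (13.2%, and 31.9% in either direction), with 54 KRAB members higher and 0 lower. The FSTL3 libraries are all of batch 2, so protein and batch cannot be told apart in that comparison. The vehicles of the batches themselves differed in KRAB members, as given below. With the GC trend removed that comparison gave 29 higher (12.9%) and 7 lower (9.58%, and 22.4% in either direction).

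Zfp619, a KRAB gene with 33 fingers at chromosome 7, 39517766 to 39540420, had the largest rise. It was at 1.24, 1.45, 0.414 and 1.04 CPM in the vehicle and at 7.31, 8.73, 8 and 9.53 CPM after FSTL3, a log2 difference of 2.79 ± 0.32 (SE, edgeR adjusted p = 5.36e-07). Its mean was 1.80 CPM after FCN2, 2.21 after EPDR1 and 1.18 after LBP. The FSTL3 values of Zfp619 thus also helped it reach the minimum of 2 CPM. Zfp407, known from fat cells as a partner of PPARG signalling, rose from 6.90 ± 2.29 to 37.9 ± 3.39 CPM (SD, n = 4 each; log2 2.45 ± 0.31, edgeR adjusted p = 2.0e-06). Zfp644, a partner of the histone methyltransferases Ehmt1 and Ehmt2, rose from 20.2 ± 0.607 to 77.6 ± 2.47 CPM (SD, n = 4 each; log2 1.95 ± 0.33, edgeR adjusted p = 7.87e-05). Its exons overlap those of Gm28039, and those of Zfp407 overlap AC152060.1.

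Further rises were 1.95 for Zfp169, 1.79 for Zfp526, 1.66 for Zfp597, 1.58 for Zfp971 and 1.54 for Zfp738 (log2). Zfp597 shares exon bases with Gm26675, Naa60 and Zfp174, and 51.1% of the words of Zfp971 occur in other genes. All of these rises kept their call when any 1 of the 8 libraries was left out.

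The fall was largest in Zfp579, which has no KRAB domain and 57.6% GC (chromosome 7, 4983483 to 4996158), from 3.66 ± 1.47 CPM to 0.763 ± 0.222 (SD, n = 4 each; log2 -2.08 ± 0.41, edgeR adjusted p = 0.000368). Zfp706, among the most abundant members, fell from 92.6 ± 5.78 to 52.9 ± 2.91 CPM (SD, n = 4 each; log2 -0.80 ± 0.15, edgeR adjusted p = 0.000189). Zfp825, higher after FCN2 without passing with all libraries, fell from 22.6 ± 4.93 to 11.3 ± 1.82 CPM (SD, n = 4 each; log2 -0.99 ± 0.18, edgeR adjusted p = 0.000147). Zfp422 fell by 1.45, Zfp362 by 1.06, Zfp395 by 0.88, Zfp35 by 0.64 and Zfp637 by 0.60 on the log2 scale. The calls of Zfp362 and Zfp637 were lost without FSTL3 replicate 4 (edgeR adjusted p 0.0662 and 0.0545), and the former without vehicle replicate 4 (0.0654), the latter without vehicle replicate 2 (0.0682). Zfp35 passed only without FSTL3 replicate 2 (0.0489) or vehicle replicate 4 (0.0211), with 0.0502 to 0.0978 otherwise.

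Of 15 members with a well described function, listed by their roles and not by these values, 5 rose after FSTL3, where 23.2% of all genes were called higher. Zfp568, which represses a placental Igf2 transcript, rose by 1.2 ± 0.28 (SE, edgeR adjusted p = 0.00191). Zfp148 rose by 1.11 ± 0.23 (edgeR adjusted p = 0.000575), Zfp281 by 0.79 ± 0.30 (0.0409), Zfp638 by 0.70 ± 0.17 (0.00197) and Zfp266 by 1.27 ± 0.18 (7.39e-06). After FCN2 none of these 5 passed with all libraries, with values of -0.23 for Zfp568, 0.31 for Zfp148, 0.27 for Zfp281, 0.47 for Zfp638 and 0.35 for Zfp266. Without LBP replicate 2, Zfp638 passed after FCN2 (0.014), as did Zfp207 (0.0207). With GC and length trends removed, Zfp148 (0.45, edgeR adjusted p = 0.383) and Zfp638 (-0.35, 0.226) no longer passed after FSTL3.

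The imprint regulator Zfp445 kept a high level in most libraries: 177, 153, 167 and 126 CPM in the batch 2 vehicle, 179, 192, 160 and 161 after FCN2, 191, 167, 200 and 175 after FSTL3, and 132, 190, 212 and 106 after EPDR1. In batch 1 it was at 140, 130, 127 and 109 CPM in the vehicle and at 40.5, 112 and 203 after LBP, the lowest in replicate 2. Neither FCN2 (0.16 ± 0.29, SE, edgeR adjusted p = 0.824) nor FSTL3 (0.24 ± 0.29, 0.549) passed, and a difference of the size of the SE cannot be told from 0. The retroviral silencer Zfp809 was at 44, 36.4, 41 and 30.4 CPM in the vehicle and 51.7, 59.5, 62.3 and 40.8 after FCN2, overlapping groups, with 0.49 ± 0.19 (SE, edgeR adjusted p = 0.174, and 0.0292 without LBP replicate 2). After FSTL3 it differed by -0.23.

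Exon length went with the FSTL3 difference, as GC content did with that of FCN2. Below 2000 bases the median was -0.23 over 6 members, at 2000 to 3000 bases -0.14 over 38, at 3000 to 4000 bases 0.22 over 34, at 4000 to 6000 bases 0.31 over 74 and from 6000 bases 0.66 over 81. The other coding genes had medians of -0.74, -0.40, -0.19, 0.07 and 0.51 in the same bins. Of the 66 rises, 39 were in the longest bin, which holds 81 members, and 0 in the shortest, which holds 6. The share of all genes called in each bin is not given here, so these counts are descriptions. The median exon length was 4418 bases for KRAB members, 5790 for other members and 4540 for other coding genes.

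**Figure D5:**
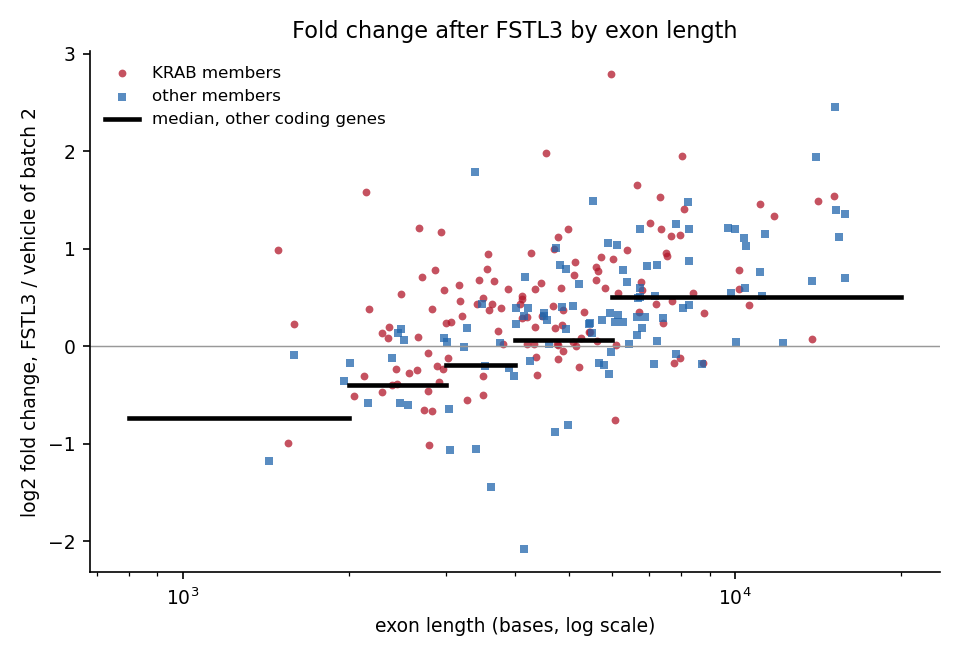
Exon length of each member on a log axis (x, bases) against its log2 difference after FSTL3 (y), with black bars at the medians of the other protein-coding genes per length bin. The bars run from -0.74 below 2000 bases to 0.51 from 6000 bases, and the members' medians from -0.23 to 0.66.

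Removing the GC trend left 55 members higher (background 22.9%) and 16 lower (17.7%, and 40.6% in either direction), with medians of 0.22 for KRAB and 0.32 for other members. Removing GC and length trends together left 51 higher (16.3%) and 9 lower (12.8%, and 29.2% in either direction). KRAB members then made up 36 of the rises (median 0.32) and others 15 (median 0.11). The calls of Zfp644, Zfp738, Zfp422, Zfp362, Zfp825, Zfp35 and Zfp637 were lost under that removal. In FSTL3 libraries the slope on length of other coding genes was 0.316 to 0.381 per doubling, against -0.141 to -0.050 in the vehicle.

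Other RNA classes moved with FSTL3 as well. Long non-coding RNA took 1.96% to 2.52% of counts after FSTL3 and 0.547% to 0.761% in the vehicle. The summed level of 6 nuclear-retained RNAs was 8937 to 13772 CPM against 1091 to 2067. Sinusoidal endothelial markers summed to 540 to 650 CPM against 223 to 282, cholangiocyte markers to 22.8 to 33.4 against 43.7 to 73.3, and Kupffer cell markers to 143 to 155 against 176 to 473, each without overlap. Their part in the members' differences was not tested.

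No member passed after EPDR1: edgeR called 0 with all libraries (background 0%) and 0 without LBP replicate 2 (background 0%), and 0 also by DESeq2 and by limma voom. At an unadjusted p under 0.05, which some genes with no difference also pass, there were 9 members with all libraries and 19 without LBP replicate 2. The share of all genes at that threshold is not given here. The median difference was 0.05 over all members, 0.08 over KRAB and 0.02 over other members, and the median SE of a member was 0.293. Zfp945 had the smallest p, with 0.73 ± 0.24 (SE, edgeR adjusted p = 1), followed by Zfp976 at 0.69 ± 0.27, Zfp867 at 0.55 ± 0.23, Zfp263 at 0.57 ± 0.24 and Zfp169 at 0.89 ± 0.38.

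With all 3 libraries, LBP raised 7 members (background 6.73% higher) and lowered 1 (0.969%, and 7.7% in either direction). Leaving out LBP replicate 2, no member rose (background 0.515%) and 1 fell (0.212%, and 0.727% in either direction), and none of the 8 calls was kept with the same sign. At an unadjusted p under 0.05 there were then 24, and the share of all genes at that threshold is not given here. The count of called members was also 1 or 2 without any 1 vehicle library, and 21 or 20 without LBP replicate 3 or 4. In each of the 7 rises LBP replicate 2 lay above the other LBP libraries. Zfp91 was at 750 CPM in LBP replicate 2 and at 127 and 141 in replicates 3 and 4, against 145, 135, 130 and 135 in the vehicle. Zfp524 was at 171, 4.5 and 4.02 CPM against 4.58, 2.28, 4.64 and 5.23 in the vehicle, and 46.7% of its words are shared with other genes. Zfp629 (132, 21.2 and 14.7 CPM), Zfp644 (118, 24.1 and 20.1), Zfp180 (108, 17.4 and 24.9), Zfp422 (83.3, 14.5 and 14.2) and the KRAB gene Zfp560 (28.1, 5.47 and 4.02) had the same form. Zfp142 was at 1.13, 3.22 and 1.88 CPM against 9.16, 5.69, 5.51 and 4.94, and fell by 1.44 ± 0.43 (SE, edgeR adjusted p = 0.0447), with -1.31 and 0.157 without LBP replicate 2. Its exons overlap those of Plcd4. Over replicates 3 and 4 the medians were 0.13 for KRAB and -0.04 for other members. The 12 pancreatic acinar markers summed to 21.2 to 2153 CPM over the LBP libraries, with Amy2a5 at 0 in all, and Kupffer markers reached 1249 CPM. Their part was not tested.

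The vehicle groups of the batches, which share their label, differed in members of both classes. In batch 1, 15 members were higher (background 6.76%) and 14 lower (5.41%, and 12.2% in either direction) than in batch 2, and of these 0 of the higher and 12 of the lower were KRAB. Leaving out LBP replicate 2 gave 29 higher (15.4%) and 39 lower (14.9%, and 30.3% in either direction). The median was -0.30 for KRAB and 0.14 for other members. The 29 calls became 17 and 13 without replicates 3 and 4 of the batch 1 vehicle and 18 without replicate 3 of the batch 2 vehicle. Zfp335 (1.77 ± 0.30, SE, edgeR adjusted p = 0.000764) and Zfp526 (1.77 ± 0.39, 0.00569) were the most raised, and Zfp932 (-1.29 ± 0.34, 0.0169), Zfp930 (-1.12 ± 0.26, 0.00768) and Zfp950 (-0.92 ± 0.22, 0.0104) among the most lowered. Zfp51 was lower by 0.87 ± 0.23 on the log2 scale (0.0166).

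Here too GC content went with the difference, in the opposite direction. Members' medians were -0.54 below 40% GC, -0.29 at 40% to 45%, 0.02 at 45% to 50%, 0.38 at 50% to 55% and 0.76 from 55%, and those of the other coding genes -0.35, -0.23, -0.05, 0.19 and 0.54. With the GC trend removed, 7 members were higher (3.55%) and 1 lower (3.21%, and 6.76% in either direction), and the KRAB median was 0.00 and that of the others 0.15. Batch and any difference between the vehicle mice cannot be told apart.

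FCN2 was also compared directly with the other proteins of batch 2. Counts at an unadjusted p under 0.05 stand here without the share of all genes at that threshold. Between FCN2 and EPDR1, 0 members passed with all libraries (background 0%, 47 at an unadjusted p under 0.05, 5 by DESeq2 and 0 by limma voom). Without LBP replicate 2, 19 were higher after FCN2 (2.47%) and 1 lower (2.26%, and 4.73% in either direction), with 15 KRAB members among the higher, and with the GC trend removed too 0 passed (background 0%, 29 at an unadjusted p under 0.05). The smallest p were those of Zfp942 (0.89 ± 0.17, SE, edgeR adjusted p = 0.00906) and Zfp763 (1.37 ± 0.27, 0.0119), with Zfp51 at 0.68 ± 0.19 (0.0379) and Zfp523 at -1.02 ± 0.22 (0.0149). Between FCN2 and FSTL3, 30 members were higher after FCN2 (18.4%) and 56 lower (25.9%, and 44.3% in either direction), with 25 KRAB members among the higher and 19 among the lower, and 5 and 37 of the others. The LBP response minus the FCN2 response, each against its own vehicle, passed in 0 members under edgeR (background 0%, 40 at an unadjusted p under 0.05, 3 by DESeq2 and 0 by limma voom) and in 0 without LBP replicate 2 (0.0572%, 28 at an unadjusted p under 0.05).

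The partners of the KRAB domain were measured in 34 of 35 listed genes. After FCN2 0 passed, with a median of 0.05. The fit without LBP replicate 2 called 3 rises (Atrx 0.58, Fam208a 0.65 and Hdac2 0.46) and 4 falls (Trim28 -0.55, Chd3 -0.55, Ehmt2 -0.59 and Gatad2a -0.70), where 8.81% of all genes were called higher and 10.1% lower. Trim28, the corepressor, was at 31.8 ± 1.99 CPM in the batch 2 vehicle, 22.1 ± 2.64 after FCN2, 43.6 ± 4.05 after FSTL3, 25.1 ± 5.48 after EPDR1 and 51.7 ± 5.25 in the batch 1 vehicle (SD, n = 4 each). After FSTL3 13 of the list rose, Trim28 by 0.45 ± 0.17 (SE, edgeR adjusted p = 0.042), Cbx3 by 1.59 and Atrx by 1.15, and 3 fell (Hdac1 -0.81, Hdac2 -0.97 and Mta1 -0.71), against 23.2% of all genes higher and 16% lower.

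Among genes known as targets of the family, 0 of 14 measured imprinted genes passed after FCN2 with all libraries, with a median of 0.19. Without LBP replicate 2 Cdkn1c rose by 1.31 and Igf2r fell by 0.48. After FSTL3 5 rose, among them Igf2r by 1.28 and the non-coding Kcnq1ot1 by 3.17, and 3 fell (Snrpn -0.95, Mcts2 -0.91 and Commd1 -0.93), against the same 23.2% and 16% of all genes. A list of 6 liver genes tied to the Rsl proteins held C4a, C4b, Cyp2d9, Mup20, Mup21 and the repressor gene Rsl1 itself. Of these 0 passed after FCN2 with all libraries. C4b and Cyp2d9 fell without LBP replicate 2 (-0.67 and -0.86), and Mup20 and Mup21 fell after FSTL3 (-1.64 and -1.82).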

How the data were processed

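RNA of 23 mouse liver samples in 6 groups, assigned by their labels, was sequenced. The authors deposited a table of unnormalized counts for each gene and library. The aligner was STAR 2.6.0c on GRCm38 (per the submitters' processing notes). Per the file headers, exons of Ensembl release 95 were counted by featureCounts 1.6.3 with its defaults for strand, pairs and multi-mapping, so a read counts only where it maps uniquely, on either strand.

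The members and gene lists were chosen with earlier results of these data known, and the named genes follow a rule: all called members where 10 or fewer were called, otherwise the 8 largest rises and 8 largest falls among called members without overlap, the smallest p after FCN2 (10), EPDR1 (5) and LBP (5), the 8 highest levels per kb, and a list of textbook genes. Others named were chosen after their values were seen. edgeR 4.0.16 (R 4.3.3; filterByExpr, TMM, robust quasi-likelihood test, adjusted p under 0.05) was fitted over 11969 genes, or 12244 without LBP replicate 2, with 1 mean per group. All 233 members passed the filter. Counts at an unadjusted p under 0.05 are descriptions, since genes with no difference can pass too. Only the first such count for FCN2 has that of all genes beside it. DESeq2 1.42.0, limma 3.58.1, other filters, a replicate block and leaving out each library were alternatives. GC and length trends were fitted per library by splines with 5 degrees of freedom. CPM per library use the TMM-scaled library size.

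Symbols, exons and transcripts came from GENCODE M21 (54809 of 54838 rows matched, and 229 of 233 members had the file's exon length). The planned RefSeq proteins were not used here, so the KRAB class is a BLOSUM62 score of at least 75 to a consensus of 40 residues in a translated coding transcript (lowest KRAB member 95, highest other member 52). A KRAB domain far from that consensus would score low, and its gene would be put among the other members. The test was tried on simulated counts first.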

Additional observations from a re-analysis of the deposited data

Results flagged for a closer look

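In groups of 4 libraries, 9 of 115 levels of named members had 1 library far from the other 3 (a gap above Dixon's 95% critical value, which chance exceeds in about 1 in 20 groups). In the batch 2 vehicle these were replicate 4 for Zfp51, at 6.92 CPM, and for Zfp523, at 7.26 CPM, and replicate 3 for Zfp276, at 3.31 CPM. After FSTL3 they were replicate 4 for Zfp971, at 7.79 CPM, and for Zfp35, at 9.78 CPM, and replicate 3 for Zfp706, at 57.2 CPM. After EPDR1 it was replicate 3 for Zfp976, at 15.4 CPM. In the batch 1 vehicle they were replicate 2 for Zfp219, at 23.9 CPM, and replicate 3 for Zfp930, at 6.91 CPM.

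Some members differed between proteins in a direct test. Between FCN2 and EPDR1 20 members passed edgeR's test without LBP replicate 2, against 4.73% of all genes, and 0 with all libraries. Between FCN2 and FSTL3 86 passed with all libraries, against 44.3% of all genes, a share above that of the members.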

How the results depend on the processing

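Counts in this section are of members alone. They show how far the calls vary, not whether members stand above genes at large. Of all genes, 0.81% were called after FCN2 with all libraries, 18.9% without LBP replicate 2 and 0% with the GC trend removed. The shares under DESeq2, limma voom, no filter, the block or the groups alone are not given here. The FCN2 count of 4 members was 36 with DESeq2, 7 with limma voom, 0 with no filter on low counts and 72 without LBP replicate 2. It was 36 with the groups compared fitted alone, 0 with the GC trend removed and 0 with GC and length trends removed. With the replicate block it was 2, and 0 with the block and the GC trend removed. Leaving out each library gave 0 to 5. Without LBP replicate 2 it was 0 with the GC trend removed, 0 with GC and length trends removed and 55 with the replicate block, and leaving out each further library gave 25 to 67 of the 72.

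The LBP count of 8 was 0 with limma voom, 2 with no filter, 1 without LBP replicate 2, 0 with the groups compared alone, and 0 with the replicate block, with or without the GC trend removed. Without LBP replicate 2 it was 0 with the GC trend removed, 0 with GC and length trends removed and 0 with the replicate block, and leaving out each library gave 1 to 21. Of the genes named for LBP, Zfp524 changed sign at -0.089 without LBP replicate 2 and at -0.193 with the replicate block as well, with a range of -0.089 to 4.14 over libraries left out. Zfp91 was at -0.019 without LBP replicate 2, -0.196 with the GC trend and -0.121 with GC and length trends removed as well, with a range of -0.019 to 1.677. Zfp422 was at -0.018 without LBP replicate 2 and with the GC trend removed, and at -0.063 with the length trend removed too.

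The count of 29 between the vehicle groups was 12 with no filter, 68 without LBP replicate 2 and 69 with the groups compared alone. It was 8 with the GC trend removed and 1 with GC and length trends removed, and leaving out each library gave 13 to 26. With the replicate block, numbers lie within a batch, so this contrast set number 1 of batch 1 against number 4 of batch 2. That is another comparison than the one of the group means, so its counts cannot show how stable the 29 are. They were 1 with the block, 0 with the block and the GC trend removed, and 10 with the block without LBP replicate 2. Zfp628 had the opposite sign there, at -0.086, with the block and the GC trend removed. The FCN2 and EPDR1 count of 0 was 5 with DESeq2, 20 without LBP replicate 2 and 16 with the block as well. The FCN2 and FSTL3 count of 86 was 53 with GC and length trends removed. The LBP response minus the FCN2 response gave 3 with DESeq2 in place of 0. The cause of these changes was not tested. The FSTL3 count stayed within 1.5 times of the 76 in every setting run, from 51 with a minimum of 5 CPM for members to 111 without LBP replicate 2. Of the values of named genes under alternatives, 930 kept direction and side of the threshold, 287 lost the call, 29 gained one and 10 changed sign.

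Same-numbered libraries deviated together in part of the pairs only: over 24 pairs of groups and numbers in batch 2 the correlation was -0.137 to 0.34, with 10 over 0.1, and over 3 pairs in batch 1 -0.0493 to 0.0626. The labels tie nothing to the number, and not every pair was over 0.1, so the numbers were not taken as pairs. In 27 of 54 comparisons a library correlated best with its own number, a hint from the data and not from the design. Settings were chosen with earlier results known, and those combining the removal of LBP replicate 2 with another change, and those of the direct comparisons other than leaving it out, were added after seeing the data. In the shallowest libraries, replicate 2 of the batch 1 vehicle (773499 counts) and LBP replicate 2 (1463037 counts), 225 and 186 of the 233 members had a count.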

Other observations

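Other zinc finger families expressed in the same libraries, listed by symbol and level, had a higher GC content than the KRAB genes and lay near the vehicle after FCN2. The 61 C2H2 genes named Zbtb, Zkscan, Zscan or Klf had a median exon GC content of 48.3% and a median log2 difference of -0.03 after FCN2, with 0 past edgeR's threshold (4 higher and 5 lower without LBP replicate 2, where 8.81% and 10.1% of all genes passed). By family the medians were -0.07 over 34 Zbtb genes, 0.20 over 8 Zkscan genes, -0.19 over 8 Zscan genes and 0.09 over 11 Klf genes. Another 37 genes of zinc-binding families of other kinds had a median of -0.11 after FCN2, with 0 called (5 higher and 3 lower without LBP replicate 2).

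After FSTL3 20 of the 61 other C2H2 genes rose and 3 fell (23.2% and 16% of all genes did), with a median of 0.46, and with the GC trend removed 19 rose and 3 fell. The Zbtb genes, which carry a BTB dimerisation domain, made up 14 of the rises. Of the 37 genes of other zinc-binding families 11 rose and 2 fell, with a median of 0.13. These lists were not compared with the Zfp members by a test.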
